A study of Mus musculus with 3 samples.

Results

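The genes described here are 9 members of the BCL2 family of cell survival and cell death regulators together with Bcl3, which shares the letters of the name but belongs to another protein family. They were taken by gene symbol, with earlier results of these data known. All 10 symbols (Bcl2, Bcl2l1, Mcl1, Bcl3, Bax, Bak1, Bad, Bid, Bnip3 and Bnip3l) were found 1 time each among the 56748 genes counted. Transcripts were measured by RNAseq in adult mouse cardiomyocytes (ACMs) from the hearts of wild-type animals aged 8 to 10 weeks, which the study took from males and females. All cultures were in serum-free medium that held BSA (0.1%), BDM (an inhibitor of contraction, 10 mM), insulin-transferrin-selenium and lipids. They received vehicle, 10 ng/mL mouse oncostatin M (OSM) or 10 ng/mL human interleukin-6 (IL-6) for 16 h. The labels name no other difference between the groups, and whether animals, culture days or library preparation were shared is not stated. RNA was pooled before sequencing, so that each condition is 1 library, and none of the differences below has a replicate check. OSM and IL-6 belong to a cytokine family that signals through the shared receptor subunit gp130. The RNAseq experiment sought genes that respond to OSM. Whether the kinase JAK1 is needed was tested separately in the paper, by qPCR of genes outside these 10 in cells without it. The labels name no change of JAK1 in the sequenced cells.

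BCL2 family proteins decide whether the outer membrane of the mitochondrion stays intact. The anti-apoptotic proteins BCL2, BCL-XL (encoded by Bcl2l1) and MCL1 hold back the pore-forming effectors BAX and BAK (encoded by Bak1). BH3-only proteins such as BAD and BID tip the balance towards death by binding other members of the family. BNIP3 and BNIP3L (also called NIX) sit in the same membrane but are best known as receptors that mark mitochondria for removal by autophagy. BCL3 is a nuclear protein of the IκB type, built of ankyrin repeats, that binds the NF-κB subunits p50 and p52 and changes their action on target genes. In heart muscle, whose cells hardly renew themselves, MCL1 and BCL-XL are known to be needed for survival, and Bcl2l1 and Mcl1 are textbook targets of STAT3, the transcription factor that gp130 cytokines activate.

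Promoter windows of 250 bases before to 50 bases after a start site were held by the RefSeq table of sequences for 9 of the 10 genes, all but Bnip3l, with 12 windows in all. The table is built on GRCm38.p6, and each window was found again by its sequence in GRCm39, the build of the deposited files, whose coordinates are given. The palindromic STAT element TTCNNNGAA was in 0 of the 12 windows, and 8.3% of all 32851 windows in the table hold it. A κB element, the DNA consensus of NF-κB, was found on either strand in 2 of the 12 windows, those of Bcl3 and 1 of Bcl2l1, against 4.51% of all windows. The core of the element bound by the hypoxia factor HIF1, ACGTG or GCGTG on either strand, was in 6 of the 12 windows, of 4 genes (Bcl2l1, Bax, Bad and Bnip3), against 43.8% of all windows. A match is a description of the letters and not a mapped site. The 3 windows below belong to the members with the largest ratios past 2-fold, Bcl3 and Bcl2l1, and to Bnip3, a member that went the other way. Each runs 5′ to 3′ on the minus strand and ends 30 bases after the start site, with the κB element in capitals for Bcl3 and Bcl2l1 and the HIF1 core in capitals for Bnip3. The Bcl2l1 window below also holds 1 HIF1 core, GCGTG, left in lower case. Bcl2 had a lower log2 ratio of OSM to vehicle than Bnip3 (-1.10 against -0.52). Its window holds none of these elements and is not shown. Whether an element goes with the direction of a ratio was not tested.
Bcl3, chr7:19556651-19556930: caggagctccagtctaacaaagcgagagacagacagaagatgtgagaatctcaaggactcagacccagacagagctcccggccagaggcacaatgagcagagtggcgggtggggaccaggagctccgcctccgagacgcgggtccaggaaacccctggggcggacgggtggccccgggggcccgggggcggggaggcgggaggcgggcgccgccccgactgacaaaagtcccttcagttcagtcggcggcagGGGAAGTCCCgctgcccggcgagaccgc
Bcl2l1, the window with the κB element, chr2:152672608-152672887: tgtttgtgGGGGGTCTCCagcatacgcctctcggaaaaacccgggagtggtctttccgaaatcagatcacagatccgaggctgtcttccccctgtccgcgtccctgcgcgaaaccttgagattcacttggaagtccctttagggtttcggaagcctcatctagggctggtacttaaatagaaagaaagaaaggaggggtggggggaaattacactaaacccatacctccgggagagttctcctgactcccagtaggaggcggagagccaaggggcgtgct
Bnip3, chr7:138511206-138511485: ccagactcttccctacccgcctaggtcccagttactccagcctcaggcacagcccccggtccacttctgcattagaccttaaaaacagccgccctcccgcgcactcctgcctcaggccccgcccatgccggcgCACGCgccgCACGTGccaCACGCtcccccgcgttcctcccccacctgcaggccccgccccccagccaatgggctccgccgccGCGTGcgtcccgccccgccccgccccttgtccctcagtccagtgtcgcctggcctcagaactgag
The κB element of Bcl3, GGGAAGTCCC, begins 3 bases into the transcript. That of Bcl2l1, GGGGGTCTCC, begins 242 bases before the start site, in 1 of 3 windows that RefSeq gives for the gene. The Bnip3 window has 5 matches to the HIF1 core, of which a pair overlaps in the palindrome CACGTG.

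Depth was 24939980 counts in the vehicle library, 26362446 in the IL-6 library and 30773001 in the OSM library. Cardiomyocyte markers (Myh6, Tnnt2, Ttn and others) had counts in 10 of 10 cases in every library and summed to between 10694 and 12808 FPKM, the authors' value per gene length and library depth. Endothelial, fibroblast, smooth muscle and lymphocyte lists stayed between 0.04 and 16.1 FPKM in sum. The macrophage list had counts for 4 or 5 of 9 genes and summed to 13.96 FPKM with vehicle, 14.8 with IL-6 and 40.2 with OSM. Its most abundant gene was Cd68, with 382, 448 and 1419 counts, and the part of other cells in the results below was not tested. Csf1r had 187, 166 and 209 counts, Lyz2 13, 4 and 31, Cd14 8, 22 and 18, and Adgre1 8, 0 and 6. Ptprc, C1qa, C1qb and C1qc had 0 counts in all 3 libraries. In RNA from many cells, fewer cells of a type and less RNA per cell cannot be told apart.

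In every library Mcl1 had the highest level of the 10 genes per length and Bcl2 the lowest. With vehicle, Mcl1 stood at 69.3 FPKM (95% counting interval 67.5 to 71.0), rank 559 of the 13733 protein-coding genes with any count, and Bcl2 at 0.665 FPKM (0.564 to 0.779). Between them came Bnip3 (29.6 FPKM), Bax (22.7), Bnip3l (15.8), Bak1 (11.1) and Bcl2l1 (5.84), whose levels with vehicle differed from their neighbours by more than counting error. Bcl3 (1.88 FPKM), Bad (1.76) and Bid (1.66) followed, and their intervals overlapped. The order with IL-6 was the same for the upper 6 genes and for Bcl2, with Bid, Bcl3 and Bad again not resolved. With OSM, Bax stood above Bnip3 in rank 2, and Bnip3l, Bak1 and Bcl2l1 lay together between 15.8 and 16.9 FPKM with intervals that overlapped from each to the next. Levels of the vehicle and IL-6 libraries lay close to each other for each gene, and the OSM library stood apart for several.

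**Figure D1:**
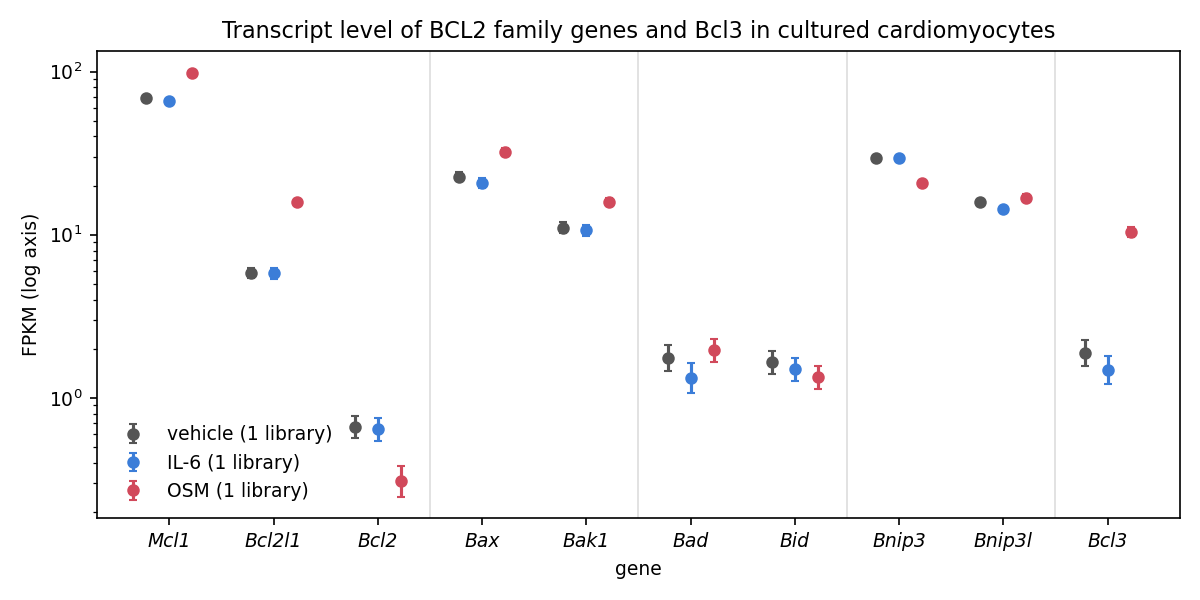
Transcript level in FPKM on a log axis for the 10 genes in the vehicle, IL-6 and OSM libraries, 1 point per library with the 95% Poisson interval of its count, ordered as anti-apoptotic, effector, BH3-only, mitophagy receptor and Bcl3. Vehicle and IL-6 points nearly coincide, and the OSM point is clearly higher for Bcl2l1 and Bcl3 and lower for Bcl2 and Bnip3.

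Libraries were compared by the ratio of their counts after TMM scaling in edgeR. The 95% Clopper-Pearson bounds beside a ratio express the error of counting and nothing else. Fragments without molecular identifiers are not independent molecules, so the true error is larger. Calls required both bounds to be past 2-fold on the same side. Between OSM and vehicle, 3.74% of 15537 compared genes were called higher and 5.43% lower, and where a pair held 100 counts or more, as it did for all 10 members, the shares were 2.93% and 3.9%. Of the 10 genes, 2 were called higher (Bcl3 and Bcl2l1) and 0 lower. By the looser rule that the interval leaves out equality, 6 of the 10 were higher and 2 lower. The background by that rule was 33.4% higher and 33.1% lower over all compared genes, and 39.6% and 36.4% over those with at least 100 counts. With 10 genes these counts are read as a description only. The median log2 ratio of the 10 genes was 0.32, against 0.00 for all compared genes, and it was 0.052 once a trend on gene length, described further on, was taken off. No P-value can be given with 1 library per condition, and a ratio compares the libraries rather than the conditions.

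Among the anti-apoptotic genes, Bcl2l1 was higher with OSM, Mcl1 was moderately higher and Bcl2 was lower. Bcl2l1 (ENSMUSG00000007659, chr2:152622588-152673648, minus strand) encodes BCL-XL and its shorter, pro-apoptotic splice form BCL-XS, which a count per gene does not separate. Its counts were 677, 721 and 2159 with vehicle, IL-6 and OSM, which are 5.84, 5.80 and 15.8 FPKM. The vehicle and IL-6 values were nearly equal and the OSM value was well above both. The log2 ratio of OSM to vehicle was 1.43 (1.31 to 1.56), or 2.70-fold, rank 815 from the top of 15157 genes with a finite ratio. Against IL-6 the log2 ratio was 1.44 (1.32 to 1.56).

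Mcl1 (ENSMUSG00000038612, chr3:95566099-95570487, plus strand) encodes a short-lived protein that is lost within hours once its synthesis stops. Its counts were 5989 with vehicle, 6073 with IL-6 and 9950 with OSM, or 69.3, 65.6 and 97.5 FPKM. The OSM library was again the high one, by a smaller factor than for Bcl2l1. The log2 ratio to vehicle was 0.49 (0.44 to 0.54), or 1.41-fold, beyond counting error and within 2-fold. Because Mcl1 started from a level 11.9-fold that of Bcl2l1, the gain in FPKM was larger for Mcl1 although its ratio was smaller.

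Bcl2 (ENSMUSG00000057329, chr1:106465908-106642004, minus strand) is the founding member of the family. It had 154 counts with vehicle, 159 with IL-6 and 85 with OSM, or 0.665, 0.641 and 0.311 FPKM. The low value was that of OSM, and those of vehicle and IL-6 differed by less than counting error. The log2 ratio of OSM to vehicle was -1.10 (-1.50 to -0.71). The estimate lay past 2-fold and the interval did not, so Bcl2 was not called by the rule.

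Bcl3 (ENSMUSG00000053175, chr7:19542387-19556695, minus strand) had the largest ratio of the 10 genes. Its counts were 118, 100 and 767 with vehicle, IL-6 and OSM, which are 1.88, 1.49 and 10.4 FPKM. The OSM library held several times the level of the others, which did not differ from each other beyond counting error. The log2 ratio of OSM to vehicle was 2.46 (2.18 to 2.75), or 5.50-fold, rank 234 from the top, and that of OSM to IL-6 was 2.80 (2.495 to 3.11). The lncRNA genes Gm16174 and Gm16175 overlap Bcl3 on the opposite strand and had at most 8 counts in a library. Leukocytes also express Bcl3, and in the OSM library the macrophage list, led by Cd68, was at 40.2 FPKM against 13.96 with vehicle, with Ptprc and C1qa to C1qc at 0 counts in each library. The part of such cells in the Bcl3 value was not tested.

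The effector genes Bax and Bak1 were higher with OSM by nearly the same factor as Mcl1. Bax (ENSMUSG00000003873, chr7:45111121-45116322, minus strand) had 905 counts with vehicle, 887 with IL-6 and 1512 with OSM, or 22.7, 20.8 and 32.1 FPKM. Its log2 ratio of OSM to vehicle was 0.50 (0.38 to 0.62). Bak1 (ENSMUSG00000057789, chr17:27238784-27247983, minus strand) had 674, 695 and 1145 counts in the same order, or 11.1, 10.7 and 15.9 FPKM. Its log2 ratio was 0.52 (0.38 to 0.66). For both genes OSM was the high library and both ratios were within 2-fold. Bax overlaps the protein-coding gene Gm45808 over 915 bases on the same strand, where a strand setting would not separate them. Gm45808 had 0 counts in each library. The whole of Bak1 lies within Ggnbp1 on the opposite strand, a gene with 111, 104 and 170 counts, and whether the counting used the strand is not stated.

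The BH3-only genes Bad and Bid were scarce. Neither differed between OSM and vehicle beyond counting error before the length trend, described further on, was taken off. Bad (ENSMUSG00000024959, chr19:6919229-6929267, plus strand), whose protein links growth factor signaling to BCL-XL, had 114 counts with vehicle, 92 with IL-6 and 150 with OSM. The log2 ratio of OSM to vehicle was 0.15 (-0.21 to 0.52). Bid (ENSMUSG00000004446, chr6:120868891-120893814, minus strand), whose protein carries the signal of death receptors to mitochondria, had 149, 144 and 142 counts. Its log2 ratio was -0.31 (-0.65 to 0.03). As ratios of OSM to vehicle, the intervals run from 0.867 to 1.43 for Bad and from 0.636 to 1.02 for Bid, and a difference inside them was not detectable at this depth. Bid overlaps Bcl2l13 on the opposite strand over 913 bases, and Bcl2l13 had 3582, 3633 and 3094 counts, many times those of Bid. Bad overlaps Gpr137 over 620 bases in the same way, with 746, 826 and 1065 counts.

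The mitophagy receptors went apart. Bnip3 (ENSMUSG00000078566, chr7:138492565-138511248, minus strand) had 1694 counts with vehicle, 1800 with IL-6 and 1398 with OSM, or 29.6, 29.3 and 20.7 FPKM. Its log2 ratio of OSM to vehicle was -0.52 (-0.62 to -0.42), lower beyond counting error and within 2-fold. Bnip3l (ENSMUSG00000022051, chr14:67222688-67246326, minus strand) had 1539, 1493 and 1948 counts, or 15.8, 14.3 and 16.9 FPKM, and a log2 ratio of 0.10 (0.00 to 0.20). OSM was the low library for Bnip3 and, by a small margin, the high one for Bnip3l. Parts of both transcripts have near copies in other annotated genes, the pseudogene Bnip3l-ps among them. At 97% identity these cover 30.6% of the Bnip3 and 34.8% of the Bnip3l transcript, against 0% for Mcl1. For Bid, Bad, Bak1 and Bax the cover, which includes genes that overlap them, was 61.6%, 33.6%, 25.8% and 19.8%. For Bcl2l1, Bcl2 and Bcl3 it was 14.6%, 6.9% and 6.7%. The values of all these genes are uncertain to the extent that shared fragments were assigned elsewhere.

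**Figure D2:**
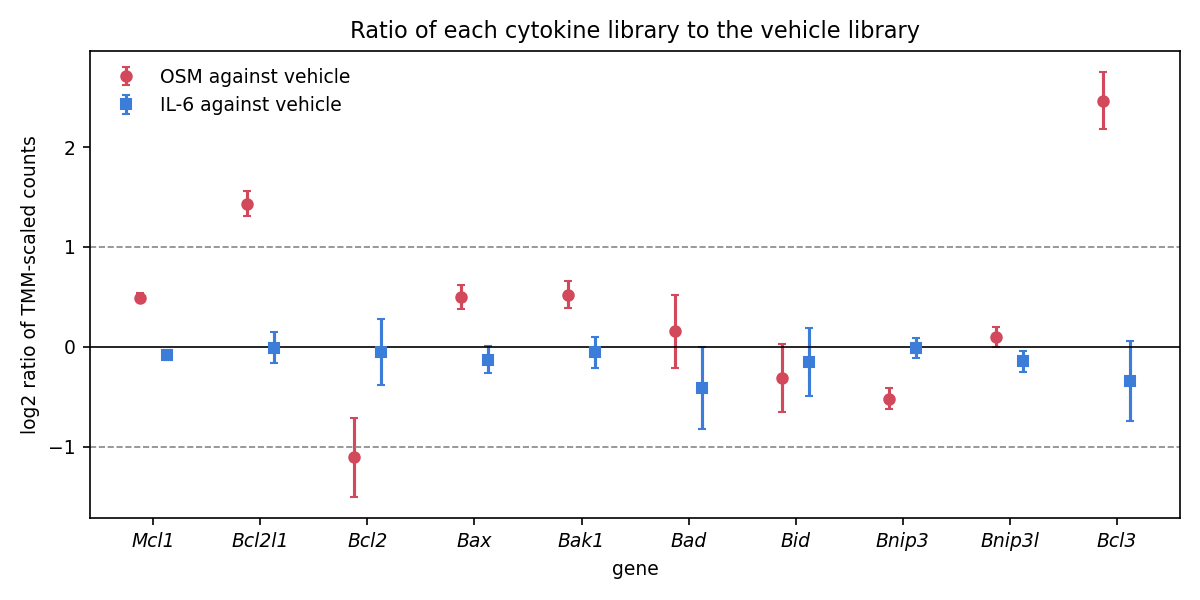
Log2 ratio of TMM-scaled counts for the 10 genes, OSM to vehicle (circles) and IL-6 to vehicle (squares), with 95% counting intervals and dashed lines at 2-fold. With OSM only the intervals of Bcl2l1 and Bcl3 lie wholly past 2-fold, and with IL-6 each of the 10 ratios lies between -0.41 and -0.01.

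IL-6-treated ACMs held these transcripts at levels close to those of vehicle. Of all 15472 compared genes, 1.77% were called higher and 1.74% lower with IL-6, or 0.11% and 0.0641% of those with at least 100 counts. Of the 10 genes 0 were called in either direction. Beyond counting error 0 were higher and 3 lower (Mcl1, Bad and Bnip3l). The lower count was 2 under 5 other settings of scaling or filter and 4 with the length trend taken off. Here the background was 19.6% higher and 19.1% lower over all compared genes, and 20.5% and 19.9% over those with at least 100 counts. The log2 ratio of Mcl1 was -0.08 (-0.13 to -0.03) and that of Bnip3l was -0.14 (-0.25 to -0.04). That of Bad was -0.41 (-0.82 to 0.00), with an upper bound just under 0. The ratio of Bcl2l1 was -0.01 (-0.16 to 0.14) and that of Bcl3 -0.34 (-0.74 to 0.06). Both intervals lie wholly below those of the same genes with OSM. The cytokine response gene Socs3 had 670 counts with vehicle and 646 with IL-6, against 18194 with OSM.

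OSM compared with IL-6 directly gave the same 2 calls, Bcl3 and Bcl2l1, where 4.24% of 15544 genes were called higher and 5.42% lower, or 2.93% and 3.66% of those with at least 100 counts. It uses the same OSM library as the comparison with vehicle. Beyond counting error 7 of the 10 were higher and 2 lower, against 33.2% higher and 33.2% lower over all compared genes, and 39.1% and 36.7% over those with at least 100 counts. Bad was the member added to the higher side, with 92 counts with IL-6 and 150 with OSM and a log2 ratio of 0.56 (0.18 to 0.95). Bcl2 stood at -1.05 (-1.44 to -0.66) and Bnip3 at -0.51 (-0.61 to -0.40). The median of the 10 genes was 0.57, and 0.27 with the length trend taken off.

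The counting intervals would be too narrow if libraries vary for other reasons. When a biological coefficient of variation of 0.2 was assumed and added to the counting error, a value chosen for illustration and not measured here, Bcl3 was past 2-fold with its whole interval (1.61 to 3.31). Bcl2l1 (0.62 to 2.24) and Bcl2 (-1.99 to -0.21) still differed from equality, and the intervals of the other 7 genes held 0. With a coefficient of 0.1, 5 genes were higher and 2 lower beyond the widened error, Mcl1 (0.09 to 0.89), Bax (0.08 to 0.92), Bak1 (0.10 to 0.95) and Bnip3 (-0.93 to -0.11) among them. With a coefficient of 0.4, the intervals of Bcl2l1 (-0.17 to 3.04) and Bcl2 (-2.75 to 0.55) held 0. That of Bcl3 (0.83 to 4.08) left out 0 but was not wholly past 2-fold. Whether the genes other than Bcl3 differ thus depends on the spread assumed.

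Gene length moved with the OSM to vehicle ratio across the transcriptome. Over 10274 protein-coding genes with at least 100 counts, the shortest eighth had a median log2 ratio of 0.47 and the longest eighth of -0.56, whereas with IL-6 these were 0.02 and -0.03. The members differ in length from 1576 bases (Bax) to 9157 bases (Bcl2), so each was set beside the 500 protein-coding genes nearest to it in length. Bcl3 lay above 99.0% of its neighbours and Bcl2l1 above 97.8%. Mcl1 lay above 81.4%, Bak1 above 76.4% and Bax above 56.6%, with a median of 0.43 for genes as short as Bax against its own 0.50. At the other end, Bnip3 lay above 7.0% of its neighbours and Bcl2 above 9.2%. The median for genes as long as Bcl2 was -0.35.

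With the fitted trend on length taken off, the log2 ratio of OSM to vehicle was 2.21 for Bcl3, 1.43 for Bcl2l1, 0.35 for Mcl1 and 0.26 for Bak1. Bax came to 0.09, within its counting error, and Bad to -0.08, with the sign turned. Bid came to -0.43, now lower beyond its counting error, and Bnip3l to 0.02, now within it. Bcl2 came to -0.75 and Bnip3 to -0.80, with counting intervals that overlap, so that these genes were no longer told apart. The calls of Bcl3 and Bcl2l1 past 2-fold held. The part of the length trend in these results was not tested further.

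**Figure D3:**
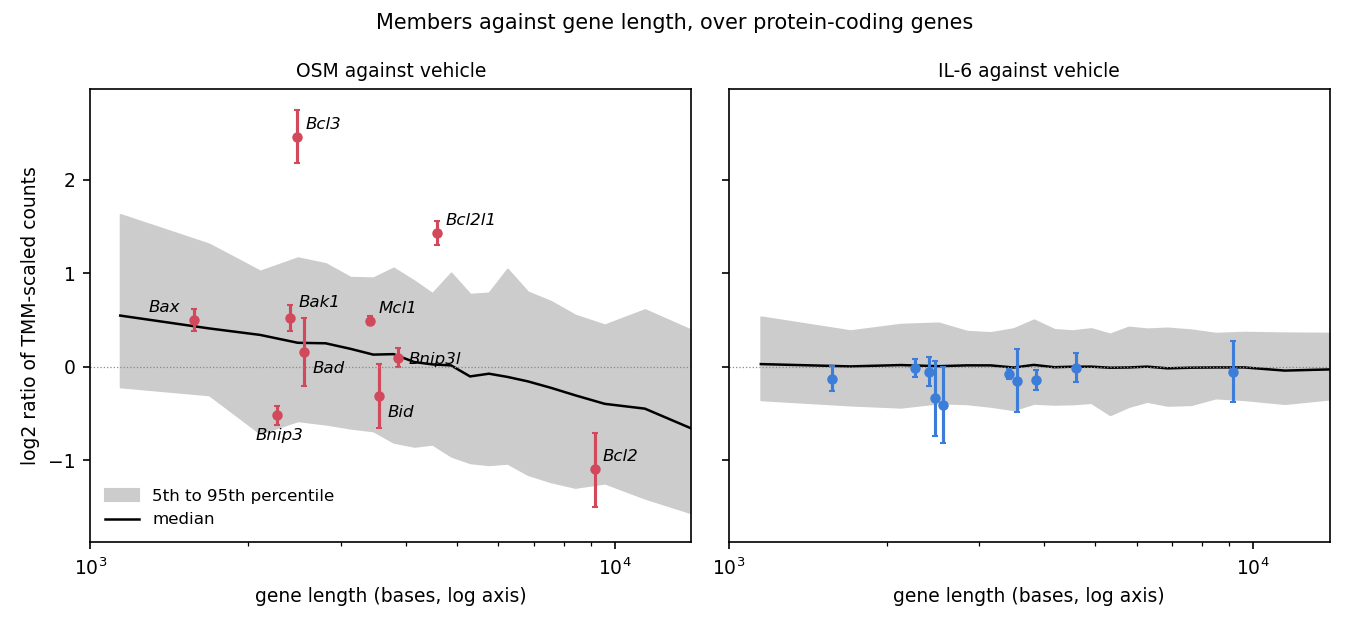
Log2 ratio against gene length on a log axis for OSM to vehicle (left) and IL-6 to vehicle (right), with the median (line) and the 5th to 95th percentile (grey) of protein-coding genes in 20 bins of length and the 10 genes as points with 95% counting intervals. On the left the grey band falls with length, Bcl3 and Bcl2l1 lie above it, and Bax and Bnip3l lie on its middle line.

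Set against each other within a library, the members shifted in proportion. The FPKM of Mcl1, Bcl2l1 and Bcl2 together were 75.8 with vehicle, 72.0 with IL-6 and 114 with OSM, and those of Bax and Bak1 together were 33.8, 31.4 and 48.0. The ratio of the first sum to the second was 2.24 (2.12 to 2.37) with vehicle, 2.29 (2.17 to 2.42) with IL-6 and 2.36 (2.26 to 2.47) with OSM, and these intervals overlap. Mcl1 made up 91.4% of the FPKM of these 3 anti-apoptotic genes with vehicle, 91.1% with IL-6 and 85.8% with OSM. Without Mcl1 the ratio of Bcl2l1 and Bcl2 to the effectors was 0.192 (0.177 to 0.210) with vehicle, 0.205 (0.188 to 0.223) with IL-6 and 0.335 (0.316 to 0.354) with OSM. There the OSM interval lay above the others, which overlapped. These values depend on which genes are summed. Bcl2l2, which encodes the anti-apoptotic BCL-W and is not among the 10 genes, had 15.6, 15.6 and 17.1 FPKM, and with it the share of Mcl1 was 75.8%, 74.9% and 74.6%. The ratio of Bcl2l1, Bcl2 and Bcl2l2 to the effectors was then 0.656 (0.615 to 0.699) with vehicle, 0.700 (0.657 to 0.745) with IL-6 and 0.689 (0.657 to 0.724) with OSM, and the intervals overlapped, so that the separation of OSM was no longer seen. The ratio of all 4 to the effectors was 2.71, 2.79 and 2.72. The trend on gene length, described above, was not taken off these FPKM ratios. Its fitted log2 value for OSM to vehicle was 0.41 for Bax and 0.26 for Bak1. For Mcl1 it was 0.14, for Bcl2l1 -0.002, for Bcl2 -0.35 and for Bcl2l2 0.01. Its part in these ratios, and in whether the OSM library stands apart, was not tested.

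Within the anti-apoptotic group, the Mcl1 to Bcl2l1 ratio was 11.9 (10.96 to 12.9) with vehicle, 11.3 (10.5 to 12.2) with IL-6 and 6.18 (5.90 to 6.48) with OSM. The Bcl2l1 to Bcl2 ratio was 8.78 (7.37 to 10.5), 9.05 (7.63 to 10.8) and 50.7 (40.8 to 63.0) in the same order. The effectors kept their proportion, with a Bax to Bak1 ratio of 2.05 (1.86 to 2.27), 1.95 (1.76 to 2.15) and 2.02 (1.87 to 2.18). Bnip3 was 1.88-fold the level of Bnip3l with vehicle (1.75 to 2.01), 2.05-fold with IL-6 and 1.22-fold with OSM (1.14 to 1.31). Transcript ratios say nothing of the proteins, whose stability differs widely in this family.

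**Figure D4:**
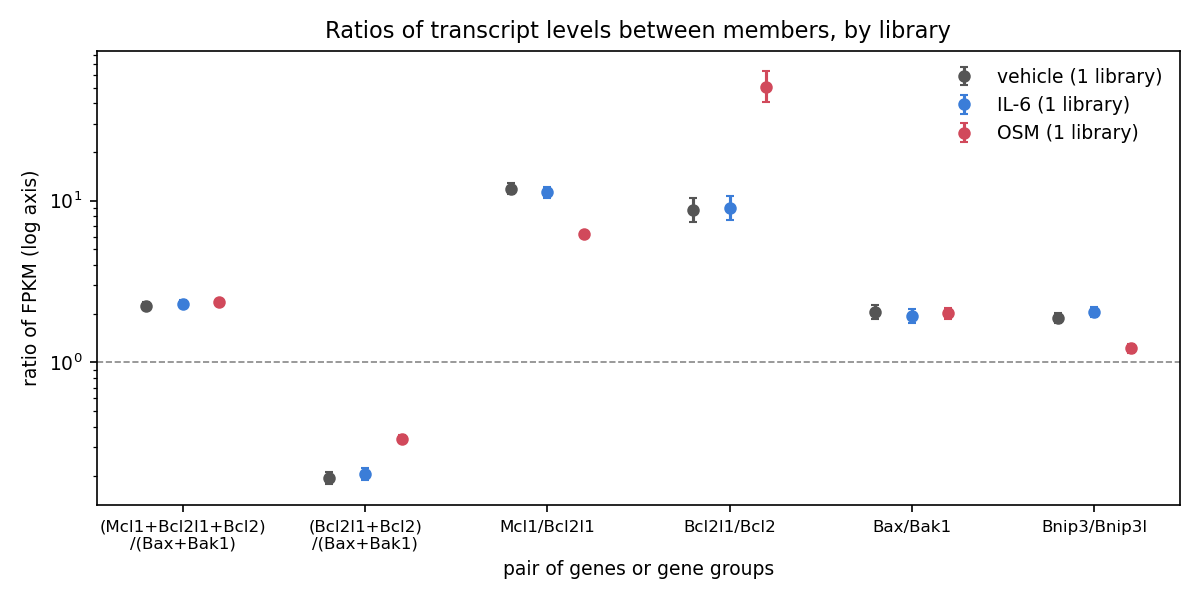
Ratios of FPKM between members or groups of members on a log axis, 1 point per library, with 95% intervals for counting error. The length trend was not taken off. The OSM point stands apart for Mcl1/Bcl2l1 (6.18), Bcl2l1/Bcl2 (50.7) and Bnip3/Bnip3l (1.22), and the 3 libraries overlap for Bax/Bak1 and for the sum of Mcl1, Bcl2l1 and Bcl2 over the effectors.

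The rest of the BCL2 family was read from a list of 19 further genes, of which 18 were in the table and 13 had at least 10 counts with OSM and vehicle together. Of these, 1 was called higher, Bmf, and 0 lower, with a median log2 ratio of 0.30. Over all compared genes 3.74% were called higher and 5.43% lower. Bmf, a BH3-only gene whose protein is tied to the cytoskeleton, had 39 counts with vehicle, 55 with IL-6 and 140 with OSM, a log2 ratio of 1.60 (1.08 to 2.15) to vehicle. Bmf thus joined Bcl3 and Bcl2l1 on the higher side, from a level below 1 FPKM in every library. Bbc3, which encodes the BH3-only protein PUMA, had 195, 244 and 358 counts and a log2 ratio of 0.63 (0.38 to 0.89). Bcl2l11, which encodes BIM, had 422, 435 and 343 counts and a log2 ratio of -0.54 (-0.75 to -0.33), where genes of its length had a fitted value of -0.28. These BH3-only genes went in both directions.

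Bcl2l2 stood at 15.6 FPKM with vehicle, above the 5.84 FPKM of Bcl2l1, and at 17.1 FPKM with OSM. Its log2 ratio was 0.12 (0.03 to 0.21). Bcl2l13, another mitophagy receptor, stood at -0.45 (-0.52 to -0.38), close to the fitted value of -0.35 for its length. Bnip1 was at 0.61 (0.46 to 0.77) and Bnip2 at 0.12 (0.04 to 0.20). Bcl2a1a, Bcl2a1b and Bcl2a1d, the homologues of blood cells, and Bcl2l10 had 0 counts in all 3 libraries. For fragments assigned to these genes this allows up to 0.120 CPM (counts scaled to library depth) with vehicle, 0.114 with IL-6 and 0.0975 with OSM. Copies shared between these genes were not looked for, so fragments that could not be assigned lie outside the bound.

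**Figure D5:**
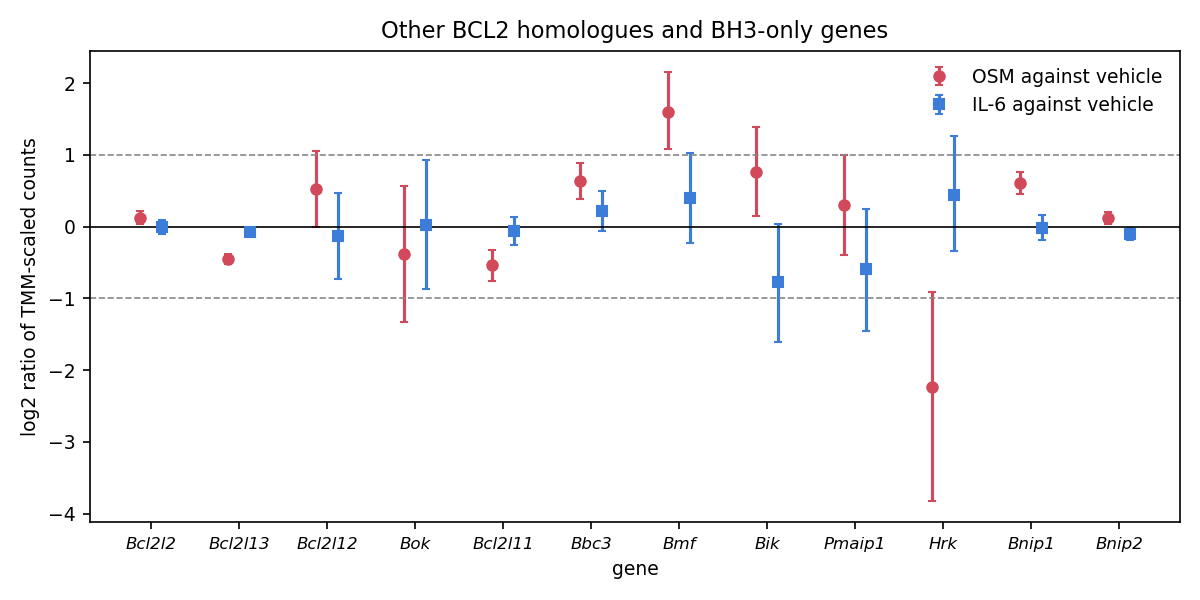
Log2 ratio of TMM-scaled counts for 12 other BCL2 family genes, OSM to vehicle (circles) and IL-6 to vehicle (squares), with 95% counting intervals and dashed lines at 2-fold. Bmf is the gene whose OSM interval lies wholly above 2-fold, and the wide intervals of Bok, Pmaip1 and Hrk reflect low counts.

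Among 22 genes of the apoptosome, caspases and their inhibitors, 21 were compared between OSM and vehicle, 1 was called higher and 1 lower. The shares over all compared genes were 3.74% higher and 5.43% lower. Casp8, the caspase that cleaves BID at death receptors, had 8 counts with vehicle, 13 with IL-6 and 73 with OSM (log2 ratio 2.95, 1.89 to 4.21). Birc6, a giant inhibitor of apoptosis, had 1500, 1784 and 618 counts (-1.52, -1.66 to -1.38), and its length of 25772 bases goes with a fitted value of -1.08. The median of the list was 0.17. Of 24 genes that act on BCL2 family proteins, 3 were higher and 2 lower. Pim3, a kinase that phosphorylates BAD, had 1333, 1593 and 6039 counts (1.94, 1.85 to 2.02). Sfn, a 14-3-3 protein, had 89, 75 and 338 counts (1.68, 1.34 to 2.04), and the small heat shock gene Hspb1 had 9114, 9835 and 48143 (2.16, 2.13 to 2.19).

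The lower genes of that list were Usp9x and Huwe1, which remove and add the ubiquitin that sends MCL1 to the proteasome. Usp9x had 7259 counts with vehicle, 7842 with IL-6 and 2666 with OSM, and Huwe1 had 6996, 7559 and 3283. Their log2 ratios were -1.69 (-1.75 to -1.62) and -1.33 (-1.39 to -1.27), beside fitted values of -0.70 and -1.02 for genes as long. Both lay below the fitted value by more than their counting error.

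Of all genes compared between OSM and vehicle, 3.74% were called higher and 5.43% lower. Bcl3's partners of the NF-κB and IκB families had 10 of 11 genes compared, of which 1 was called higher. This was Nfkbiz, which encodes another nuclear IκB protein, with 44, 84 and 205 counts (log2 ratio 1.98, 1.503 to 2.48). The subunit genes whose products BCL3 binds, Nfkb1 and Nfkb2, were at 0.34 (0.21 to 0.48) and 0.18 (0.09 to 0.27), and the list had a median of 0.43. In the STAT3 target list 9 of 15 genes were called higher with OSM and 0 lower, with a median of 1.40. This list was chosen with earlier results of these data known. It holds Socs3 and Timp1, which the paper names among the genes most induced by OSM in this RNAseq. Its median is therefore no independent measure of a STAT3 response. The ratio of Bcl3 lay above that median, the ratio of Bcl2l1 beside it and the ratio of Mcl1 below it. Of 18 p53 targets, 0 were called in either direction and the median was 0.07.

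Bnip3 is a classical target of HIF1 and, in muscle, of FOXO3. In the list of 20 hypoxia genes, 4 were called higher with OSM and 0 lower, and 9 were higher and 6 lower beyond counting error. Of all compared genes 3.74% were called higher and 5.43% lower. Beyond counting error their shares were 33.4% higher and 33.1% lower, or 39.6% and 36.4% of those with at least 100 counts. The median of the hypoxia list was 0.18, or 0.03 with the length trend taken off. Ndrg1 had 242 counts with vehicle, 292 with IL-6 and 2692 with OSM (3.23, 3.04 to 3.43), and Pfkfb3 and Bhlhe40 were at 1.75 (1.47 to 2.03) and 1.52 (1.45 to 1.58). Hif1a itself, which encodes a subunit of HIF1, had 1871, 1725 and 4317 counts (0.96, 0.89 to 1.04). Against vehicle it was higher beyond counting error and not called, and against IL-6 it was called higher. Epas1 (-0.97, -1.05 to -0.89) and Kdm3a (-0.64, -0.79 to -0.48) were among the lower ones, so the list went both ways. In the list of 14 FOXO genes, 0 were called higher and 4 lower, and 3 were higher and 9 lower beyond counting error. The median of this list was -0.21, or -0.35 with the length trend taken off. Pik3ip1 had 732, 890 and 221 counts (-1.97, -2.19 to -1.75), Fbxo32, the muscle ubiquitin ligase atrogin-1, had 5263, 5210 and 2077 (-1.58, -1.66 to -1.51) and Foxo3 itself had 2345, 2537 and 1219 (-1.19, -1.29 to -1.08). The higher ones were Gadd45a (0.86, 0.79 to 0.93), Txnip (0.36, 0.32 to 0.40) and Trim63 (0.33, 0.27 to 0.39). Whether either factor bears on the value of Bnip3 was not tested. Among 20 other mitophagy genes 0 were called higher and 1 lower, Ppargc1a (-1.80, -1.98 to -1.63), a regulator of mitochondrial biogenesis, and their median was 0.00.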

How the data were processed

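RNA from ACMs was pooled and 1 library per condition was sequenced by the authors. The submitters' processing notes name fastp, HISAT2 2.2.1, featureCounts 2.0.6 and edgeR 4.0.16 on mm39 (GRCm39), whereas the paper's methods name other releases of featureCounts and edgeR. For the strand setting: not given in the sources used here. The authors deposited raw whole-number counts per gene, and FPKM values that the authors made from these counts, gene length and 1 constant per library. 

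TMM factors came from edgeR 4.0.16 in R 4.3.3 over all genes, for each pair. A minimum of 10 counts in the pair was set. With 1 library per condition no count model with a test was fitted. Ratios carry 95% Clopper-Pearson bounds, conditional on the sum of both counts (scipy 1.17.1), FPKM the exact Poisson interval, and ratios of FPKM an interval by error propagation. The length trend was a lowess fit (statsmodels 0.14.6, fraction 0.3) over protein-coding genes with at least 100 counts. A count of 0 was taken to allow 3 counts. The interval was tested on simulated counts. Promoter windows came from RefSeq, and transcripts were compared with those of other genes in GENCODE M39 with BLAST. Alternatives were other scalings (DESeq2 1.42.0 among them), filters, thresholds, the length trend and assumed spreads.

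All 10 members are named. Of every other list up to 3 called genes per direction are named, plus family genes with at least 100 counts. Outside that rule, genes that were not called between OSM and vehicle are named as well. These are Nfkb1, Nfkb2, Hif1a, Epas1, Kdm3a, Gadd45a, Txnip and Trim63, besides the cell markers and the genes under other observations. The 10 members and all lists were chosen with earlier results of these data known.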

Additional observations from a re-analysis of the deposited data

How the results depend on the processing

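With 1 library per condition no replicate could be left out, DESeq2 and edgeR tests could not be fitted, and no outlier among replicates could be looked for. No paired analysis was possible because each condition is 1 library. Under DESeq2 size factors, total counts, upper quartile factors, both filters, the authors' FPKM and removal of the length trend, the calls past 2-fold stayed at 2 higher and 0 lower for OSM against vehicle and against IL-6, and at 0 for IL-6 against vehicle. An assumed coefficient of variation of 0.2 left 1 higher gene against either library, and 0.4 left 0 against vehicle and 1 against IL-6. Taking the point estimate or a 1.5-fold threshold added 1 lower gene (Bcl2) against either. Beyond counting error, a coefficient of 0.2 left 2 higher and 1 lower gene and 0.4 left 1 and 0, against either library, and with IL-6 against vehicle each coefficient from 0.1 left 0, where other settings gave 2 to 4 lower genes. Removing the length trend moved the median of the 10 genes from 0.32 to 0.052 against vehicle and from 0.57 to 0.27 against IL-6. Beyond counting error this removal left 4 higher and 3 lower against vehicle, and 6 and 2 against IL-6. Against vehicle, total counts gave 5 higher and 3 lower, and the filter of 100 counts gave 5 and 2. The TPM scale kept all 30 ranks of levels. The cause of differences within 2-fold was not tested. Adding Bcl2l2 to the anti-apoptotic genes, an alternative chosen after seeing the data, ended the separation of OSM in the ratio without Mcl1. The length trend was not taken off the FPKM ratios between genes. Depth limits Bcl2, Bad, Bid and, with vehicle and IL-6, Bcl3.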

Other observations

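Trim17, Nfkbiz and Pim1 were chosen after their values were seen, and their values in the IL-6 library differed from vehicle beyond counting error. Trim17, which encodes a ubiquitin ligase of MCL1, had 100 counts with vehicle, 53 with IL-6 and 44 with OSM. Its log2 ratio was -1.02 (-1.52 to -0.52) with IL-6 and -1.43 (-1.97 to -0.90) with OSM, and neither interval lay past 2-fold. Nfkbiz, with 44, 84 and 205 counts, was at 0.83 (0.29 to 1.39) with IL-6. Pim1, a kinase that STAT3 induces in many cells, had 454, 606 and 510 counts and log2 ratios of 0.32 (0.14 to 0.50) with IL-6 and -0.07 (-0.26 to 0.11) with OSM. All of these ratios share the vehicle library.

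Hrk, the BH3-only gene known from neurons, had 24 counts with vehicle, 35 with IL-6 and 6 with OSM. Its log2 ratio of OSM to IL-6 was -2.69 (-4.23 to -1.42), past 2-fold with its whole interval, and that of OSM to vehicle was -2.24 (-3.82 to -0.91).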
